A study of Mus musculus with 4 samples.

Results

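The 10 genes of the vascular endothelial growth factor (VEGF) and angiopoietin systems, 5 ligands (*Vegfa*, *Vegfb*, *Vegfc*, *Angpt1* and *Angpt2*) and 5 receptors (*Flt1*, *Kdr*, *Flt4*, *Tek* and *Tie1*), were followed in glomerular RNA of *Gak*-KO and control mice. They were chosen by name as ligands and receptors of these systems, with earlier results of these data known. The ligands *Vegfd*, *Pgf* and *Angpt4* were measured but are not among the 10. Each of the 10 had a probe set annotated with its symbol alone, so all 10 of 10 were measured among 22180 genes. *Gak*-KO mice were homozygous for a floxed *Gak* allele and carried a Cre transgene under the podocin promoter together with a floxed diphtheria toxin receptor allele. *Gak*, a kinase with a role in clathrin uncoating, was thus deleted in podocytes. The controls were littermates with the floxed *Gak* allele and without Cre, and both groups were C57BL/6 mice of 3 weeks. Glomeruli were taken from the cortex after bead perfusion and a density gradient, and each array held the pooled RNA of 3 mice. There were 2 arrays per group, numbered 1 (labelled male) and 2 (labelled female), and the arrays of the same number in both groups formed pair 1 and pair 2.

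In the glomerulus, podocytes secrete VEGF-A across the basement membrane to the fenestrated endothelium, where it signals through VEGFR2, and this exchange maintains the capillary. Angiopoietin 1 activates the receptor Tie2 on the same endothelium and stabilises it, whereas angiopoietin 2 can act as an antagonist of Tie2 and is a product of activated endothelial cells. The deletion of *Gak* was therefore in the cell that makes the main ligand, whereas the receptors lie mainly on the neighbouring endothelial cell.

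The windows before 4 of the 5 receptor genes are shown because the signals of the receptors moved the same way within each pair, though none passed a test, as given with their values. The RefSeq table of GRCm38.p6 had an entry for 8 of the 10 genes. The 250 bases before the first listed start site are printed from 5′ to 3′ on the strand of the gene. Capitals mark the core of the site of ETS transcription factors, GGAA on either strand (TTCC when read on the printed one). ETS factors are well known regulators of endothelial genes.
Flt1, chr5:147726012-147726261, minus strand: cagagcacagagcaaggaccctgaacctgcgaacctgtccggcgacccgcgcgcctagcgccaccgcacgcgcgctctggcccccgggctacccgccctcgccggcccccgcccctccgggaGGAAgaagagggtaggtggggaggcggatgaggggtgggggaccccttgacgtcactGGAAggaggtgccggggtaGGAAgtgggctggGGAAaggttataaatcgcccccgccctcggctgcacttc
Kdr, chr5:75978456-75978705, minus strand: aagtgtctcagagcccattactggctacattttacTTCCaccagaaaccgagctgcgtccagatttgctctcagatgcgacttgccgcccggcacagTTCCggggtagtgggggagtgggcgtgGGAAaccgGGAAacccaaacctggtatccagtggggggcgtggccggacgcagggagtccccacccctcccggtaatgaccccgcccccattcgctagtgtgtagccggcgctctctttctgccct
Tek, chr4:94739039-94739288, plus strand: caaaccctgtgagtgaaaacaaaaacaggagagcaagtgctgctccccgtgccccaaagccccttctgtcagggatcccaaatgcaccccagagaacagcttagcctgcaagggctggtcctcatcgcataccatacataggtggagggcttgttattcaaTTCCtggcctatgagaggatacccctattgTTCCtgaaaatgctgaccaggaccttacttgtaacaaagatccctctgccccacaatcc
Tie1, chr4:118489850-118490099, minus strand: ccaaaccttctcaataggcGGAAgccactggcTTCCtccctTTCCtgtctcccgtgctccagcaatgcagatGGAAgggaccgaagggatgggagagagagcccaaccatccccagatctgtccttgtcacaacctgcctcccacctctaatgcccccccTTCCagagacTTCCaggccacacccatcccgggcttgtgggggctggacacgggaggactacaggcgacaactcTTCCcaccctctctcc
The GGAA core occurred 4 times before *Flt1*, 4 times before *Kdr*, 2 times before *Flt4*, 2 times before *Tek* and 7 times before *Tie1*. Among the ligands it occurred 6 times before the first start site of *Vegfa*, 2 times before its second one and 1 time each before *Vegfb* and *Vegfc*. Of all 32851 windows of the same length in the table, 93.4% held at least 1 such core, with a median of 3 matches. The longer form AGGAAG, whose matches all contain the core, was found 2 times before *Flt1*, 1 time before *Tie1* and 0 times before *Kdr*, *Flt4* and *Tek*, and in 29.5% of all windows. The hypoxia element, searched as ACGTG or GCGTG on both strands, had 0 matches before the first start site of *Vegfa* and 2 before its second one, and was present in 38.6% of all windows. It had 2 matches each before *Vegfb* and *Kdr*, 1 before *Flt1* and 0 before *Vegfc*, *Flt4*, *Tek* and *Tie1*. The second *Vegfa* window (chr17:46025164-46025413, minus strand) lies downstream of the first (chr17:46032378-46032627). Whether it acts as a promoter was not tested. These matches are letters in a window and do not show binding.

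Before the results, the arrays were set against their labels. The *Gak* probe set was read in RNA of whole glomeruli, with log2 signals of 8.64 and 8.39 on *Gak*-KO 1 and 2 and of 8.25 and 8.35 on control 1 and 2, so it does not test a deletion in podocytes. *Xist*, the noncoding transcript that silences an X chromosome in females, read 9.61 and 9.21 on *Gak*-KO 1 and 2 and 9.69 and 8.55 on control 1 and 2, higher on the arrays labelled male, which goes against the sex labels. The Y-linked *Uty* read 5.59 and 5.57 on *Gak*-KO 1 and 2 and 4.65 and 6.00 on control 1 and 2, without following them either. The Y-linked *Eif2s3y* read 6.24 and 6.49 on *Gak*-KO 1 and 2 and 5.52 and 6.60 on control 1 and 2. *Kdm5d*, also Y-linked, read 4.80 and 4.81, and 4.68 and 5.21. Both were higher on the arrays labelled female in each group, *Kdm5d* barely so in *Gak*-KO, again against the labels. The sex label, the experiment and the array number coincide and cannot be told apart. Podocyte markers were present at log2 signals between 6.07 and 11.22 and endothelial markers between 4.85 and 11.91, and proximal tubule markers were also present, between 8.98 and 12.98. Of all 41345 probe sets, 1421 had identical values on the arrays of pair 1 and 3735 on those of pair 2, whereas 0 had them on any other combination of arrays. None of the 10 genes had such a tie in a pair, and the effect of the ties on the variances was not tested. All 10 genes had mean signals above the 30th percentile, below which 30% of all genes lie by definition.

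None of the 10 genes was called as changed in the glomeruli of *Gak*-KO mice. For the *Z*-ratio, each array was turned to *Z* scores and the within-pair difference was divided by the SD of all such differences, and 0 of 10 passed 1.96 with the same sign in pair 1 and pair 2, as did 0.744% of all genes. In limma, with blocks for the pairs, 0 of 10 genes passed an adjusted p of 0.05 (Benjamini-Hochberg over all genes), and 0% of all genes did. At an unadjusted p under 0.05 in limma there were also 0 of 10, beside 5.43% of all genes. The 10 mean log2 changes (*Gak*-KO minus control) lay between -0.20 and 0.09, with a median of -0.12, where the median over all genes was -0.01. With 2 arrays against 2, an exact permutation test without the pairing cannot go below p = 0.333, and the number of arrays limits the precision. Nothing in the labels says more of how the mice of a pool were related. The p values in limma rest on pools and not on single mice. Each sets the mean change of the 2 pairs against an error that comes from their disagreement, with variances moderated over all genes.

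**Figure D1:**
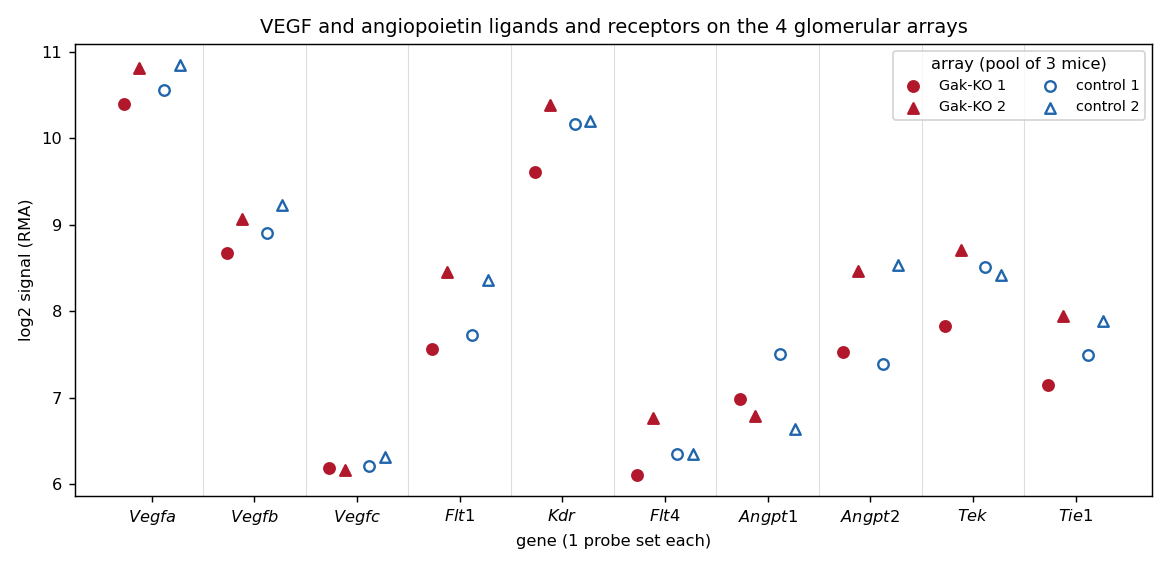
Log2 signal (RMA) of each of the 10 genes on the 4 arrays, with *Gak*-KO arrays filled and control arrays open, circles for arrays 1 and triangles for arrays 2. The *Gak*-KO and control points overlap for 9 of the 10 genes, the exception being *Vegfc*, and for most genes the triangles lie above the circles.

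The 3 VEGF ligands among the 10 genes had lower signals in *Gak*-KO glomeruli in both pairs, the 95% intervals of the 3 mean changes included 0, and 0 of 3 passed. *Vegfa*, the main VEGF ligand of podocytes, had log2 signals of 10.40 and 10.81 on *Gak*-KO 1 and 2, against 10.56 and 10.85 on control 1 and 2. Its arrays of both groups overlapped, and the arrays numbered 2 were higher in each. The mean log2 change was -0.10 (SE 0.10, 95% interval -0.41 to 0.21, n = 2 arrays per group), with an adjusted p of 0.846 in limma. On the linear scale this interval spans 0.753 to 1.15 times the control level. *Vegfb*, a ligand of VEGFR1 with roles in fatty acid uptake, was at 8.67 and 9.06 on *Gak*-KO 1 and 2, against 8.90 and 9.22 on control 1 and 2. Each *Gak*-KO array was below the control of its number, and the groups still overlapped. The change was -0.20 (SE 0.10, 95% interval -0.50 to 0.10), with an adjusted p of 0.833 in limma. *Vegfc*, the ligand of VEGFR3 that drives lymphatic growth, was at 6.18 and 6.16 on *Gak*-KO 1 and 2, against 6.21 and 6.32 on control 1 and 2. Both *Gak*-KO arrays lay below both controls, which was the case without overlap, in either direction, for 17% of all genes. The change of *Vegfc* was -0.09 (SE 0.10, 95% interval -0.41 to 0.22), with an adjusted p of 0.855 in limma. These 3 VEGF ligands were lower in both pairs, a pattern shared by 24.3% of all genes, and with 0 of 3 past either criterion it is given as values only. The VEGF ligands outside the 10 were higher in both pairs, as were 4956 of all 22180 genes. Their changes in pairs 1 and 2 were 0.68 and 0.16 for *Vegfd* and 0.05 and 0.42 for *Pgf*. The probe sets do not separate splice forms, so the isoforms of VEGF-A are read together.

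The 3 VEGF receptors had lower signals in pair 1 and higher ones in pair 2, and 0 of 3 passed. *Kdr*, which encodes VEGFR2, the main signalling receptor of VEGF-A, had log2 signals of 9.61 and 10.39 on *Gak*-KO 1 and 2, against 10.16 and 10.20 on control 1 and 2. The controls were within 0.04 of each other, and the *Gak*-KO arrays lay on either side of them. The changes were -0.55 in pair 1 and 0.19 in pair 2, with a mean of -0.18 (SE 0.23, 95% interval -0.87 to 0.51) and an adjusted p of 0.871 in limma. *Flt1*, which encodes VEGFR1, a high-affinity receptor whose soluble form traps VEGF-A, was at 7.56 and 8.45 on *Gak*-KO 1 and 2, against 7.73 and 8.37 on control 1 and 2. Here the arrays numbered 2 were the higher ones in both groups. The changes of *Flt1* were -0.16 and 0.09 in pairs 1 and 2, with a mean of -0.04 (SE 0.12, 95% interval -0.40 to 0.32) and an adjusted p of 0.949 in limma. *Flt4*, which encodes VEGFR3, the receptor of VEGF-C on lymphatic and some fenestrated endothelium, was at 6.10 and 6.76 on *Gak*-KO 1 and 2, against 6.35 and 6.35 on control 1 and 2. The control values were nearly equal, as for *Kdr*. The changes of *Flt4* were -0.24 and 0.42, with a mean of 0.09 (SE 0.21, 95% interval -0.54 to 0.72) and an adjusted p of 0.937 in limma. For *Kdr* the interval spans 0.548 to 1.42 times the control level, so changes within these bounds could not be distinguished on these arrays.

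Of the angiopoietins, *Angpt1*, the agonist of Tie2 that comes from perivascular and mesangial cells and podocytes, was at 6.98 and 6.78 on *Gak*-KO 1 and 2, against 7.50 and 6.64 on control 1 and 2. It was the one gene of the 10 whose mean was higher on the arrays numbered 1. The changes were -0.52 and 0.14 in pairs 1 and 2, with a mean of -0.19 (SE 0.21, 95% interval -0.83 to 0.44) and an adjusted p of 0.853 in limma. A second *Angpt1* probe set, not used because its mean was lower, read 3.12 and 3.41 on *Gak*-KO 1 and 2, against 3.40 and 3.42 on control 1 and 2. *Angpt2*, the context-dependent antagonist of Tie2, was at 7.53 and 8.47 on *Gak*-KO 1 and 2, against 7.38 and 8.54 on control 1 and 2. The spread between array numbers within each group was wider than the difference of the groups. The changes of *Angpt2* were 0.15 and -0.07, with a mean of 0.04 (SE 0.11, 95% interval -0.31 to 0.39) and an adjusted p of 0.947 in limma. The change of *Angpt2* exceeded that of *Angpt1* by 0.67 in pair 1 and was below it by a difference of -0.21 in pair 2. The balance of these ligands thus had no common direction in both pairs, and with 2 pairs it was not tested.

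*Tek*, which encodes Tie2, the angiopoietin receptor, had log2 signals of 7.83 and 8.71 on *Gak*-KO 1 and 2, against 8.51 and 8.42 on control 1 and 2. As for *Kdr*, the controls lay close together and between the *Gak*-KO arrays. The changes were -0.68 in pair 1 and 0.29 in pair 2, with *Z*-ratios of -2.31 and 1.10. *Tek* in pair 1 was the only value of the 10 genes beyond the limit in either pair, as were 2.39% of all genes in that pair and direction. In pair 2, 0 of 10 were above the limit, beside 3.01% of all genes. The mean change was -0.20 (SE 0.28, 95% interval -1.06 to 0.67), with an adjusted p of 0.891 in limma, and the interval, the widest of the 10 genes, spans 0.478 to 1.59 times the control level. *Tie1*, an orphan receptor that forms complexes with Tie2 and modulates it, was at 7.15 and 7.95 on *Gak*-KO 1 and 2, against 7.50 and 7.88 on control 1 and 2. The *Gak*-KO arrays again spanned the controls. The changes of *Tie1* were -0.35 and 0.06, with a mean of -0.14 (SE 0.15, 95% interval -0.60 to 0.31) and an adjusted p of 0.852 in limma. The change of *Tek* minus that of *Tie1* was -0.33 in pair 1 and 0.22 in pair 2, and that of *Kdr* minus that of *Flt1* was -0.38 and 0.10. The change of *Vegfa* minus that of its receptor *Flt1* was 0.0044 and -0.13.

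**Figure D2:**
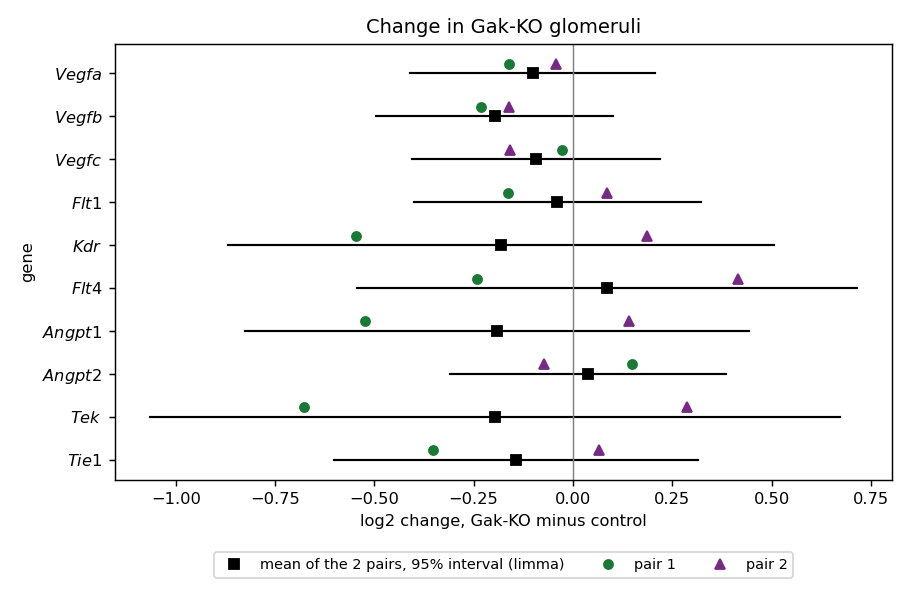
Log2 change (*Gak*-KO minus control) of each gene, as the mean of the 2 pairs with its 95% interval from limma (squares and lines), and in pair 1 (circles) and pair 2 (triangles). Every interval includes 0, the VEGF ligands lie left of 0 in both pairs, and the 5 receptors lie left of 0 in pair 1 and right of it in pair 2.

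All 5 receptors were lower in pair 1 and higher in pair 2, with medians of -0.35 and 0.19, a combination found in 20.2% of all genes. *Angpt1* had it too, and *Angpt2* had the opposite one, as did 19.5% of all genes. Whether the changes differ between the pairs was not tested, since each pair holds 1 array per group. Of 16 endothelial markers, 4 had the same combination, *Emcn*, *Ehd3*, *Erg* and *Icam2*, and the medians over the list were 0.08 and 0.28. *Ehd3*, an endocytic protein of glomerular endothelium, had changes of -0.62 and 0.30 in pairs 1 and 2. *Cdh5* and *Pecam1*, junction molecules of all endothelium, had positive changes in both pairs, of 0.07 and 0.38 for *Cdh5* and of 0.15 and 0.39 for *Pecam1*, without passing. The summed endothelial signal was 13.00 and 13.59 on *Gak*-KO 1 and 2, against 13.15 and 13.32 on control 1 and 2, in log2 units. Signals were summed on the linear scale, so *Ehd3* and *Emcn*, with mean log2 signals of 11.53 and 10.86, weigh most in this sum. By count, 10 of the 16 endothelial markers were higher in pair 1 and 13 in pair 2, with 9 higher in both. Of 11 podocyte markers, 9 were lower in pair 1 and higher in pair 2 (medians of -0.11 and 0.27), and their summed signal was 11.66 and 12.99 on *Gak*-KO 1 and 2, against 11.80 and 12.67 on control 1 and 2. In bulk glomeruli, fewer cells of a type and less RNA per cell cannot be told apart, and the part of cell composition in the receptor values was not tested.

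**Figure D3:**
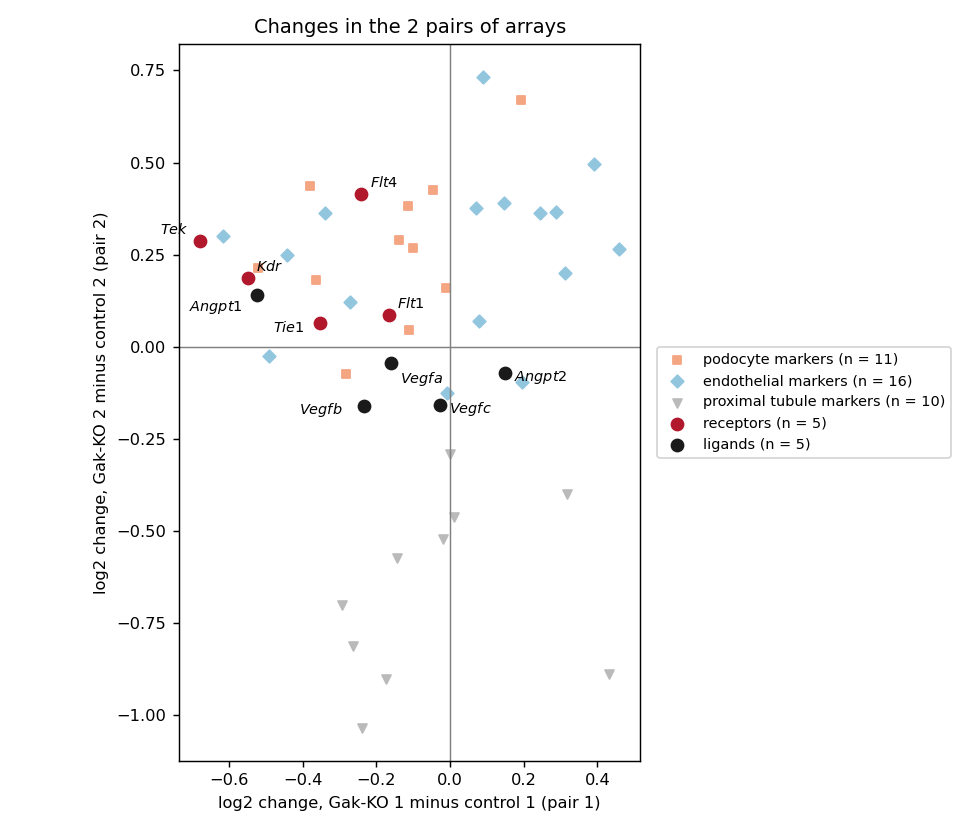
Log2 change in pair 1 (horizontal) against pair 2 (vertical) for the 5 receptors (red), the 5 ligands (black), 16 endothelial, 11 podocyte and 10 proximal tubule markers. The receptors and *Angpt1* lie to the upper left of the origin with 9 of the podocyte and 4 of the endothelial markers, whereas all 10 proximal tubule markers lie below 0 in pair 2.

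The arrays numbered 2 differed from those numbered 1 by more than the genotypes did for 9 of the 10 genes, the exception being *Vegfc*. How many of all genes did so was not counted, so this is not read as particular to the 10. Of the 10 genes, 9 were higher on arrays 2, beside 8516 of all 22180 genes, where the median difference was -0.10. For 8 of 10 the arrays 2 and 1 did not overlap, as for 66.2% of all genes. The largest difference (arrays 2 minus arrays 1) was that of *Angpt2*, 1.04 (SE 0.11, 95% interval 0.70 to 1.39), followed by *Flt1* at 0.77 (SE 0.12) and *Tie1* at 0.59 (SE 0.15). *Angpt1* had a difference of -0.53 (SE 0.21), and of -0.19 with the mean of its probe sets (adjusted p = 0.460 in limma). At an unadjusted p under 0.05 in limma there were 5 of 10 genes (*Vegfa*, *Vegfb*, *Flt1*, *Angpt2* and *Tie1*), beside 32.8% of all genes. After adjustment 0 of 10 passed, as did 0% of all genes, with an adjusted p of 0.0809 for *Angpt2* and 0.0817 for *Flt1* in limma. With quantile normalization of the 4 arrays 4 of 10 passed in limma, *Angpt2* (adjusted p = 0.0177), *Flt1* (0.0216), *Vegfa* (0.0376) and *Tie1* (0.0413), beside 15.1% of all genes. With arrays centred on their medians 3 of 10 passed in limma, *Angpt2* (adjusted p = 0.0165), *Flt1* (0.0213) and *Tie1* (0.0430), but not *Vegfa* (0.0732), beside 15.2% of all genes. Without genes of low signal 1 of 10 passed in limma, *Angpt2* (adjusted p = 0.0499), but not *Flt1* (0.0518), *Tie1* (0.0841) or *Vegfa* (0.113), beside 6.98% of the 15526 genes left. Quantile normalization also moved the difference of *Vegfa* to 0.60, against 0.35, and that of *Kdr* to 0.64, against 0.41. The difference of *Vegfc* was 0.04 as deposited, 0.08 with quantile normalization and 0.13 with centred arrays. On the same arrays the median difference was 1.14 for podocyte markers, 0.43 for endothelial markers and -1.19 for proximal tubule markers, and the part of these cells in the values of the 10 genes was not tested.

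**Figure D4:**
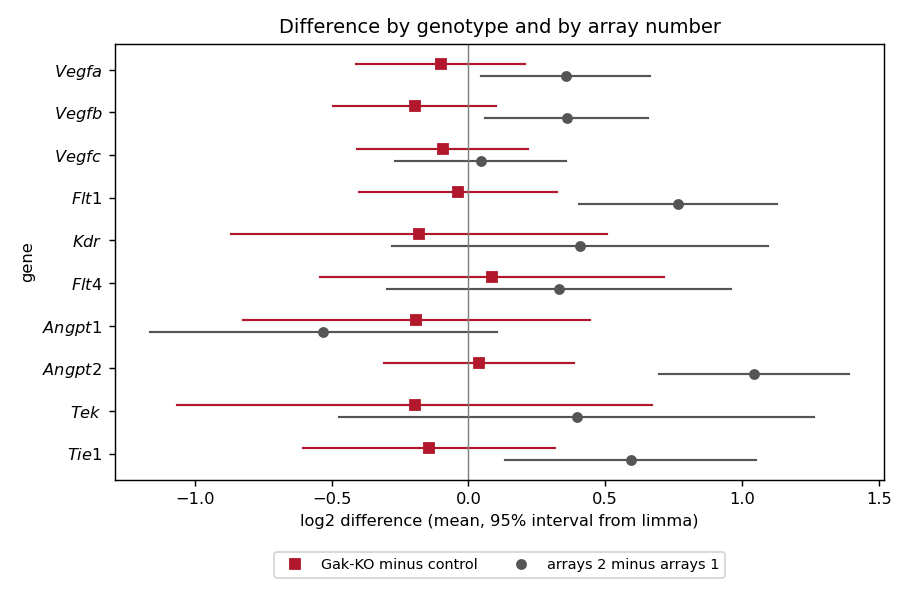
Log2 difference by genotype (*Gak*-KO minus control, squares) and by array number (arrays 2 minus arrays 1, circles) for each gene, with 95% intervals from limma. The genotype intervals all include 0, whereas those of the array number lie above 0 for *Vegfa*, *Vegfb*, *Flt1*, *Angpt2* and *Tie1*.

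Among the listed genes outside the 10, likeness was measured by the Euclidean distance between log2 signals over the 4 arrays after each gene's mean was subtracted, over 137 candidates. The nearest genes of *Tek* were *Ehd3* (0.07), the distal potassium channel *Kcnj1* (0.22) and the adaptor *Grb14* (0.23), and those of *Kdr* were *Ehd3* (0.10), *Kcnj1* (0.11) and *Grb14* (0.16). For *Tie1* they were *Cldn5*, a tight junction claudin of endothelium (0.12), *Hspb1* (0.15) and *Nrp1* (0.16). For *Flt1* they were the podocyte factor *Dach1* (0.14), the vascular sialomucin *Cd34* (0.14) and nephrin, *Nphs1* (0.16), and for *Flt4* they were *Grb14* (0.16), *Hlx* (0.21) and *Aqp2* (0.22). *Vegfa* lay nearest to *Dll4*, a Notch ligand of endothelium (0.06), *Synpo*, which encodes synaptopodin of podocytes (0.09), and *Emcn* (0.15). *Vegfb* lay nearest to *Synpo* (0.08), *Dll4* (0.12) and *Mrc1* (0.19), and *Vegfc* to *P4ha1* (0.06), *Slc2a1* (0.14) and *Egr3* (0.14). *Angpt2* lay nearest to *Fcgr1* (0.16), *Hspg2* (0.21) and *Nphs1* (0.24), and *Angpt1* to *Bnip3* (0.29), *Agtr1a* (0.33) and *Map2k1* (0.34). The nearest ones included markers of endothelium, podocytes, tubules, macrophages and mural cells. Since the candidates were themselves lists of pathway genes and cell markers, the presence of such markers follows from that choice. The distances rest on 4 arrays.

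The genes around the ligands and receptors were read from lists chosen with earlier results of these arrays known, and 68 of 77 listed genes were measured. By the *Z*-ratio 4 of them (5.88%) were higher in *Gak*-KO glomeruli, beside 0.509% of all genes, 0 were lower, beside 0.234%, and 64 did not pass. The list is no independent evidence of a direction, and the median change was 0.08, where that of all genes was -0.01. In limma 0 of 68 passed an adjusted p of 0.05 and 7 (10.3%) had an unadjusted p under 0.05 in limma, beside 5.43% of all genes. When probe sets lacking a single symbol also entered the *Z* scores, 1 of the 4 remained, *Ccn2*. The higher genes were *Ccn2*, *Nr4a1*, *Itga5* and *Adm*.

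*Ccn2*, a matricellular protein that binds VEGF-A, was at 9.06 and 8.91 on *Gak*-KO 1 and 2, against 7.89 and 7.87 on control 1 and 2, a change of 1.10 (SE 0.10). With the mean of all its probe sets the change of *Ccn2* was 0.70, over 1.5 times smaller. *Nr4a1*, a nuclear receptor induced by VEGF in endothelial cells and by many other stimuli, was at 7.56 and 8.42 on *Gak*-KO 1 and 2, against 6.84 and 7.43 on control 1 and 2, a change of 0.85 (SE 0.12). *Itga5*, the fibronectin receptor subunit that associates with Tie2, was at 6.18 and 6.87 on *Gak*-KO 1 and 2, against 5.54 and 6.31 on control 1 and 2, a change of 0.60 (SE 0.10). For *Ccn2* and *Nr4a1* both *Gak*-KO arrays were above both controls, and for *Itga5* the groups overlapped, so that its call rests on the pairing. *Adm*, a vasodilator peptide gene induced by hypoxia, was at 7.18 and 8.89 on *Gak*-KO 1 and 2, against 6.34 and 6.69 on control 1 and 2, a change of 1.52 (SE 0.39). Its change was 0.83 in pair 1 and 2.20 in pair 2. Leaving out a single array moved the values of *Adm*, *Nr4a1* and *Itga5* by over 1.5 times, in fits that ignore the pairing. The change of *Adm* was 0.66 without *Gak*-KO 2 and 2.37 without *Gak*-KO 1. That of *Nr4a1* was 0.42 without *Gak*-KO 2, 0.56 without control 1 and 1.28 without *Gak*-KO 1. That of *Itga5* was 0.26 without *Gak*-KO 2, 0.22 without control 1, 0.95 without *Gak*-KO 1 and 0.99 without control 2.

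The other genes of these groups did not pass. The other VEGF ligands *Vegfd* and *Pgf* had changes of 0.42 (SE 0.17) and 0.23 (SE 0.14). Among 9 co-receptors and binding proteins, besides *Ccn2*, the protease *Adamts1* had a change of 0.86 (SE 0.34) and thrombospondin 1, *Thbs1*, one of 0.48 (SE 0.23), without passing. *Adamts1* was at 8.21 and 7.61 on *Gak*-KO 1 and 2, against 6.77 and 7.33 on control 1 and 2, so that most of its change lay in pair 1. The neuropilins, co-receptors of VEGF-A and VEGF-C, had changes of -0.06 (SE 0.11) for *Nrp1* and 0.42 (SE 0.10) for *Nrp2*. Of 16 genes of VEGF signalling, 0 passed (median change of 0.00), with the largest changes in *Hspb1* at -0.28, *Nfatc1* at 0.27 and *Prkca* at 0.25. Of 10 genes of the endothelial response to VEGF, 1 was higher, *Nr4a1*, and the tip cell genes *Esm1* and *Dll4* had changes of -0.12 (SE 0.15) and -0.10 (SE 0.10), and *Apold1* and *Rcan1* had changes of 0.35 and 0.27. Of 10 partners of the Tie receptors, 1 was higher, *Itga5*, and *Ptprb*, the phosphatase that dephosphorylates Tie2, had a change of 0.11 (SE 0.10), *Itgb1* one of 0.30 and *Svep1* one of -0.23.

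The hypoxia system, which induces *Vegfa*, had 1 called gene. Of 8 regulators, 0 passed (median change of 0.02), and *Hif1a* and *Epas1*, the oxygen-sensitive subunits of the hypoxia-inducible factors, had changes of -0.11 (SE 0.14) and 0.22 (SE 0.10). Their partner *Arnt* was at 0.28 and the hydroxylase *Egln1* at -0.26. Of 11 hypoxia targets, 1 was higher, *Adm*, and the median change was -0.09. The carbonic anhydrase *Car9* had a change of 0.42 (SE 0.10) and passed only with a robust scale of the ratio, and the glycolytic gene *Pgk1* one of -0.26. Of 3 angiopoietin-like genes measured, *Angptl4*, a lipase inhibitor made by injured podocytes, had changes of 1.47 and -0.01 in pairs 1 and 2, *Angptl7* a mean change of -0.35 and *Angptl1* one of 0.05.

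Markers of the cells in the preparation were read in the same way. Of 16 endothelial markers 0 passed the *Z*-ratio criterion in both pairs (median change of 0.15), with the largest changes in *Robo4* at 0.44 (SE 0.10), *Sox18* at 0.41 and *Ets1*, a factor of the ETS family, at 0.36. Of 4 lymphatic markers 0 passed (median change of -0.01), with *Reln* at -0.30 and *Mmrn1* at -0.02, and *Lyve1*, a hyaluronan receptor of lymphatic endothelium, was at 4.26 and 4.13 on *Gak*-KO 1 and 2, against 4.09 and 4.10 on control 1 and 2. Of 11 podocyte markers 0 passed (median change of 0.07), with *Nes* at 0.43, *Kirrel* at 0.19 and *Synpo* at -0.18. Of 10 mesangial and mural markers, *Tagln* was higher by 0.95 (SE 0.21; 0.61 without *Gak*-KO 2), and *Des* and *Acta2* had changes of 0.63 and 0.55 without passing. Of 10 proximal tubule markers 0 passed (median change of -0.32), *Fbp1*, *Miox* and *Slc5a2* being at -0.64, -0.54 and -0.54. Of 8 distal nephron markers, *Slc12a1* was lower, with a change of -0.62, and *Umod* and *Slc12a3* had changes of -0.48 and 0.25. Of 10 macrophage markers, *Cd68* was higher by 0.71, and *Cd14* and *C1qb* had changes of 0.57 and 0.39 without passing. These marker calls differ from the paper's own list by *Z*-ratio. That list holds *Fbp1*, *Slc5a2*, *Gatm*, *Umod* and *Des*, which did not pass here, and lacks *Tagln* and *Cd68*, which did.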

How the data were processed

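The 4 arrays, 2 for each genotype, carried glomerular RNA pooled from 3 mice. The authors deposited log2 signals per probe set, for which the processing notes name RMA and limma without versions. The array named in the methods does not match the probe set identifiers, which belong to another design. Background correction could not be varied, as the scanner files were not used here. Of 41345 probe sets, 23521 carry a single gene symbol, 1820 carry more and 16004 carry none. Per gene the probe set with 1 symbol and the highest mean was taken, which gave 22180 genes.

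*Gak*-KO minus control was computed within the array number. The design text gives 2 independent experiments and the study compared within batches. Across genes, the departures from the group mean had a correlation of 0.694 between arrays sharing a number. The *Z*-ratio took both pairs at 1.96. Log2 changes, SE, 95% intervals and p values were computed in R 4.3.3 by limma 3.58.1, with blocks for the pairs, moderated variances (1 residual degree of freedom, to which moderation adds 2.24) and Benjamini-Hochberg adjustment over all genes. The difference of array numbers is from the same fit. The procedure was tested on simulated data. Sequences are from RefSeq, GRCm38.p6. Figures were drawn with matplotlib 3.10.9.

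The members and lists were chosen with earlier results of these data known. All 10 members are named, and of each other list the called genes, the 3 of largest mean change and the 3 genes nearest to a member; *Nrp2*, *Esm1*, *Ptprb*, *Hif1a*, *Cdh5*, *Pecam1*, *Erg* and *Icam2* were added after their values were seen. Alternatives were no pairing, other normalizations, the mean of all probe sets, a filter at the 30th percentile of the signal, an intensity trend, other *Z* scalings and limits, and leaving out each pair or array.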

Additional observations from a re-analysis of the deposited data

Results flagged for a closer look

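For 7 of the 10 genes the change had opposite directions in the pair labelled male and the pair labelled female, which is what singled them out. The change in pair 2 minus the change in pair 1 was 0.96 for *Tek*, 0.73 for *Kdr*, 0.66 for *Angpt1*, 0.66 for *Flt4*, 0.42 for *Tie1*, 0.25 for *Flt1* and -0.22 for *Angpt2*. The difference was not tested, since each pair holds 1 array per group, and sex label, experiment and array number coincide. Of all genes, 20.2% were lower in pair 1 and higher in pair 2, and 19.5% the other way.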

How the results depend on the processing

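Under the 6 alternatives that kept all arrays, the no replicate block fit among them, the changes of the 10 genes kept their direction and 0 of 10 passed in limma (60 values, smallest adjusted p = 0.765). Without the replicate block, 0 genes of the series passed. The change of each gene is the same by construction in that fit, with the low-signal filter and with the intensity trend. The mean of all probe sets could change only *Angpt1*, which alone of the 10 had a second probe set. For the other genes only quantile normalization and median centring could have changed a direction. With a pair or an array left out, where the fits ignore the pairing or rest on 1 pair, 0 of 10 genes passed in the fits without an array, the count over all genes was between 0 and 1, and the changes ranged, with both signs for every gene except *Vegfc*, between -0.31 and 0.10 for *Vegfa*, -0.39 and 0.00021 for *Vegfb*, -0.16 and -0.03 for *Vegfc*, -0.48 and 0.41 for *Flt1*, -0.57 and 0.21 for *Kdr*, -0.24 and 0.42 for *Flt4*, -0.62 and 0.24 for *Angpt1*, -0.54 and 0.62 for *Angpt2*, -0.68 and 0.29 for *Tek* and -0.54 and 0.26 for *Tie1*. The 5 receptors kept their directions in both pairs under quantile normalization and median centring, alternatives chosen after seeing the data. Averaging probe sets could not change them, since each receptor had 1 probe set. Median centring moved the values little, since array medians in pair 1 were 5.01 (*Gak*-KO) and 4.97 (control). In pair 2 they were 4.91 and 4.90. By the *Z*-ratio, 113 genes were higher and 52 lower; these counts were 32 and 9 when every probe set entered the *Z* scores, 240 and 151 with the median absolute deviation as the scale, and 48 and 11 at a limit of 2.58, with 0 of 10 members under each. Of the pathway genes, in alternatives also chosen after seeing the data, 1 passed over every probe set and 2, *Adm* and *Ccn2*, at the limit of 2.58. Between array numbers, 0 genes passed, but 3359 did with quantile normalization, 3376 with arrays centred on their medians and 1083 of 15526 without genes of low signal, with 4, 3 and 1 of the 10 members among them; the cause was not tested.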
